A study of Mus musculus with 12 samples.

Results

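The genes described here are 8 standard markers of mast cells and basophils, taken by symbol from a count table of 52550 genes: *Cpa3*, *Mcpt4*, *Cma1*, *Tpsb2*, *Tpsab1*, *Fcer1a*, *Ms4a2* and *Hdc*. Each symbol had exactly 1 row, and each was followed through 12 bulk RNA sequencing libraries, made from whole lungs of newborn mice. The study treated newborn mice with lipopolysaccharide (LPS), a bacterial endotoxin, as a model of the chronic lung disease of premature infants, and asked how the loss of a copy of *Adm*, the gene of the vasodilator peptide adrenomedullin, changed the response of the lung.

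Mast cells live for long periods in connective tissue, where they lie along vessels, airways and the pleura. Basophils circulate in blood and enter tissue in inflammation. Both store histamine in granules and carry the high-affinity receptor for immunoglobulin E (IgE), and crosslinking of that receptor by antigen empties the granules. Mast cells of connective tissue also pack their granules with proteases of the chymase, tryptase and carboxypeptidase families, which cut peptides and matrix once released.

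All 12 mice were C57Bl/6J, and every library came from the snap-frozen lung of 1 mouse at postnatal day 5. Wild-type (WT, Adm+/+) mice and Adm+/- mice, which keep a single intact copy of *Adm* in every cell, received 6 mg/kg of LPS from Escherichia coli O55:B5 or the same volume of phosphate-buffered saline (PBS) into the peritoneum once daily for 3 doses, and the lungs were removed 6 h after the last. Each of the 4 groups had 3 mice, numbered 3, 4 and 5 in WT PBS, 9, 10 and 11 in WT LPS, 6, 7 and 8 in Adm+/- PBS and 1, 2 and 12 in Adm+/- LPS. Mice without any *Adm* are not viable, so the genotype is a reduction of the gene and not its absence.

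Total counts ranged from 22382535 to 38062873 per library, so a floor of 3 counts lay between 0.0925 and 0.185 CPM (counts scaled to the size of the library), a limit that covers counting error only. In 2 libraries the composition stood apart. Protein-coding genes took 77.8% of the counts in WT PBS replicate 5 and 80.1% in Adm+/- PBS replicate 6, against 84.3% to 87.6% in the other 10, while the non-coding gene *Gm26917* took 16.6% and 13.3% against 5.42% to 7.40%. *Adm* itself was at 3.96 to 8.15 CPM in the WT libraries and at 2.87 to 6.28 CPM in the Adm+/- libraries, and these ranges overlap. The lung markers *Sftpc*, *Sftpb*, *Ager*, *Hopx*, *Scgb1a1*, *Foxj1*, *Pecam1* and *Cldn5* summed to between 12800 and 16600 CPM in every library.

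The genes lie on 6 chromosomes of mm10, with positions from Gencode release M21. The chymase genes *Mcpt4* (chr14:56059629-56062313, minus strand) and *Cma1* (chr14:55941451-55944675, minus strand) lie in the chymase cluster with *Mcpt1*, *Mcpt9*, *Mcpt2* and *Cma2* between them, and the tryptase genes *Tpsb2* (chr17:25366305-25369098, plus strand) and *Tpsab1* (chr17:25343245-25345562, minus strand) are neighbours in the tryptase cluster. *Cpa3* lies at chr3:20215620-20242181, *Fcer1a* at chr1:173221284-173227214, *Ms4a2* at chr19:11615523-11623719 and *Hdc* at chr2:126593667-126619299, all on the minus strand. Exons of *Mcpt4* and *Cma1* share 5.5% and 5.4% of their 50-base windows with other annotated genes, namely *Cma2* and *Mcpt9* for *Mcpt4* and *Gm48934* for *Cma1*, so a small part of their reads could be assigned to a copy. The tryptases shared none, *Ms4a2* shared 2.1% and *Hdc* 0.1%.

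Promoters of *Cpa3*, *Mcpt4* and *Cma1* are shown because the results of LPS in Adm+/- lungs described below turn on these genes. Each line gives the 250 bases before the transcription start that RefSeq annotates on GRCm38.p6, on the strand of the gene, at chr3:20242182-20242431, chr14:56062311-56062560 and chr14:55944676-55944925. Capitals mark matches to the GATA motif (AGATAA, the variant that reads AGATAG, the variant that reads TGATAA and the variant that reads TGATAG, each on either strand), which is the motif of the GATA factors of mast cells, and to the TATA box (TATAAA on either strand).
Cpa3: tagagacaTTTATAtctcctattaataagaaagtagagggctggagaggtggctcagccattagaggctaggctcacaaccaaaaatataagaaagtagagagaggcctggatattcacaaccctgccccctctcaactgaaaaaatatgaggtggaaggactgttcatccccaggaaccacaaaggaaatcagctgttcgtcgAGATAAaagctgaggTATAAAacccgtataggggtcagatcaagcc
Mcpt4: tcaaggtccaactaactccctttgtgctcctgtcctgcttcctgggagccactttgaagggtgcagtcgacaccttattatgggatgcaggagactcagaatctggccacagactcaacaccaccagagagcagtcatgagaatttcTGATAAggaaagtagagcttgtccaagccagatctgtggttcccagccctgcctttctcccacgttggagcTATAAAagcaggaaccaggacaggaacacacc
Cma1: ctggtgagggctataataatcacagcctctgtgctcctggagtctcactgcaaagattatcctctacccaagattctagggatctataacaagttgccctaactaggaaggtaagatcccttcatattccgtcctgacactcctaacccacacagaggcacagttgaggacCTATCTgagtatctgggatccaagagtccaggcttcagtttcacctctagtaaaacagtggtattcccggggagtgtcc
A GATA match began 46 bases before the start of *Cpa3*, 103 before that of *Mcpt4* and 79 before that of *Cma1*. TATAAA matches began 31 and 32 bases before the starts of *Cpa3* and *Mcpt4*, and *Cpa3* held another on the opposite strand. RefSeq promoters were at hand for 6 of the 8 genes (also *Fcer1a*, *Ms4a2* and *Hdc*, but not *Tpsb2* or *Tpsab1*). In windows of 300 bases, GATA letters occurred in 6 of these 6 and in 29.8% of 32851 promoters, TATAAA in 3 of 6 and in 13.6%, and the core CATGTG or CACGTG, a motif of the mast cell factor MITF, in 1 of 6 (*Fcer1a*) and in 20.4%. These are letter matches in a short window and not measured binding.

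Seen per kilobase of annotated exon, *Hdc* was the highest of the 8 genes and the IgE receptor chains the lowest. The mean over the 12 libraries was 9.37 ± 1.83 CPM per kb (SD, n = 12) for *Hdc*, which was above that of 64.2% of the 15885 genes tested. It was followed by *Cma1* with 4.27 ± 0.872 CPM per kb, *Tpsb2* with 2.63 ± 0.563, *Cpa3* with 2.61 ± 0.625 and *Mcpt4* with 2.39 ± 0.736. Far below came *Tpsab1* with 0.204 ± 0.106, *Fcer1a* with 0.120 ± 0.109 and *Ms4a2* with 0.0949 ± 0.073 CPM per kb. *Hdc* was above *Cma1*, *Cma1* above *Tpsb2*, and *Mcpt4* above *Tpsab1* in 12 of 12 libraries. *Tpsb2* was above *Cpa3* in 6 of 12, *Cpa3* above *Mcpt4* in 9 of 12, *Tpsab1* above *Fcer1a* in 10 of 12 and *Fcer1a* above *Ms4a2* in 7 of 12, so these neighbours did not hold a fixed order.

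The lung carried *Cma1*, *Tpsb2*, *Cpa3* and *Mcpt4*, and almost none of the mucosal mast cell proteases *Mcpt1* and *Mcpt2*. *Mcpt9* had no count in any library, and *Mcpt1* and *Mcpt2* reached at most 1 and 2 counts. Also *Tpsg1*, a membrane-bound tryptase, reached at most 4 counts, and *Mrgprb2*, the receptor of mast cells for cationic secretagogues, at most 12. The basophil proteases *Mcpt8* and *Prss34* reached at most 22 and 44 counts, with group means from 0.453 to 0.685 CPM and from 0.652 to 0.998 CPM.

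*Cpa3*, the carboxypeptidase of mast cell granules, was at 3.77, 4.47 and 2.66 CPM in WT PBS and at 4.47, 3.66 and 3.90 CPM in WT LPS. In Adm+/- lungs it was at 3.26, 5.81 and 5.45 CPM with PBS and at 3.78, 2.89 and 3.46 CPM with LPS, in the order of replicates given above. The highest levels of all were in replicates 7 and 8 of Adm+/- PBS, while replicate 6 of that group sat within the range of the Adm+/- LPS lungs.

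*Mcpt4*, the main chymase of connective tissue mast cells in the mouse, varied in a similar way. It was at 2.91, 3.20 and 2.04 CPM in WT PBS, at 3.14, 2.20 and 2.59 CPM in WT LPS, at 1.16, 3.99 and 3.82 CPM in Adm+/- PBS and at 2.39, 2.43 and 1.85 CPM in Adm+/- LPS. Adm+/- PBS replicate 6 was the lowest of the 12 libraries and replicates 7 and 8 were the highest, so the coefficient of variation in that group reached 53.1%, against 14.5% to 22.3% in the other 3.

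*Cma1*, an alpha-chymase, was at 4.93, 5.73 and 6.18 CPM in WT PBS, at 4.35, 3.70 and 5.42 CPM in WT LPS, at 3.95, 5.44 and 5.29 CPM in Adm+/- PBS and at 3.59, 3.60 and 3.63 CPM in Adm+/- LPS. The Adm+/- LPS lungs were the lowest 3 of the 12 and lay close together.

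Of the tryptases, *Tpsb2* was at 4.70, 4.03 and 3.15 CPM in WT PBS, at 5.67, 4.74 and 5.66 CPM in WT LPS, at 2.84, 4.36 and 4.06 CPM in Adm+/- PBS and at 3.67, 4.15 and 3.35 CPM in Adm+/- LPS. WT LPS lungs were the highest 3 of the 12. *Tpsab1* gave between 1 and 22 counts per library, with the fewest in WT PBS replicate 3 and Adm+/- PBS replicate 6 and the most in WT LPS replicate 11. Per kilobase, *Tpsab1* was above 4.54% of tested genes.

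*Fcer1a*, the chain of the IgE receptor that binds IgE, gave 0, 1 and 2 counts in WT PBS, 13, 5 and 4 in WT LPS, 1, 2 and 0 in Adm+/- PBS and 4, 3 and 3 in Adm+/- LPS. *Ms4a2*, the signal-amplifying beta chain of the same receptor, gave 8, 1 and 2 counts, 7, 4 and 3 counts, 2, 17 and 9 counts, and 3, 17 and 10 counts in the same order of groups. *Fcer1a* was lower in each PBS library than in the LPS libraries of its genotype, while the *Ms4a2* counts overlapped between all groups. Neither gene passed the filter on low counts, so both were left out of the fit that gave adjusted p-values for the other 6.

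*Hdc*, histidine decarboxylase, makes histamine, and is also active in some other myeloid cells. It was at 39.5, 61.2 and 52.7 CPM in WT PBS, at 54.6, 53.1 and 47.4 CPM in WT LPS, at 71.2, 71.2 and 51.4 CPM in Adm+/- PBS and at 70.6, 76.0 and 69.6 CPM in Adm+/- LPS. The 3 Adm+/- LPS lungs and replicates 6 and 7 of Adm+/- PBS were above all 6 WT lungs, and Adm+/- PBS replicate 8 was among them.

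**Figure D1:**
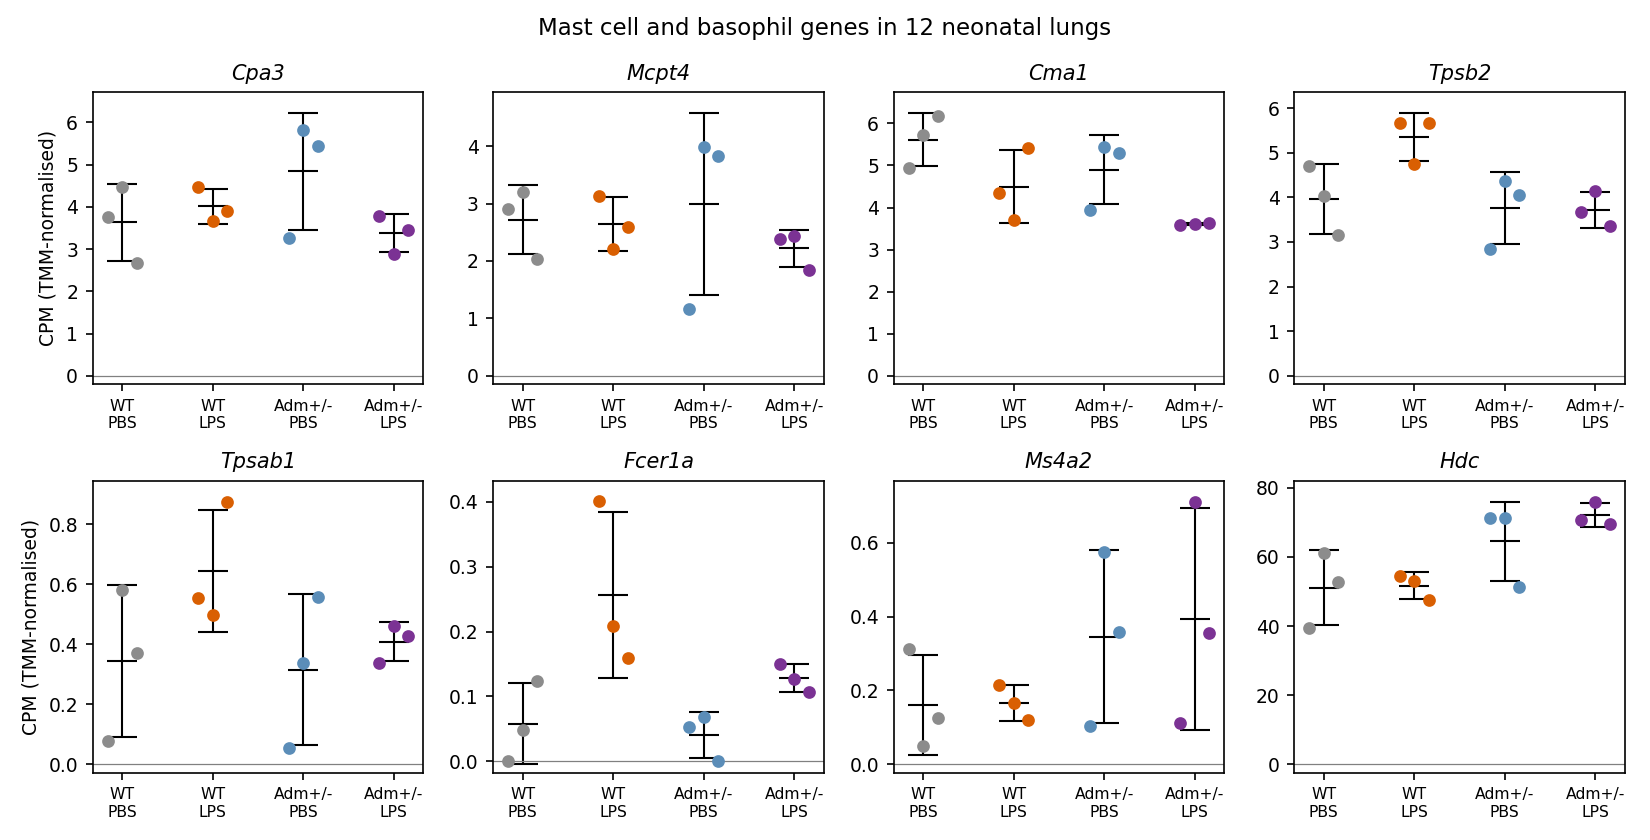
Level of each gene (CPM after TMM normalisation, linear axis) in the 4 groups; points are single lungs, drawn from left to right in the order of replicate number, and bars are the group mean ± SD (n = 3). *Cma1* in Adm+/- LPS lungs sits between 3.59 and 3.63 CPM, and *Hdc* in the same lungs between 69.6 and 76.0 CPM.

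The first comparison asked whether LPS changed these genes in WT lungs, and no member passed the threshold of an adjusted p below 0.05 with an absolute log2 fold change above 0.5. None of the 6 tested members was called, while 17.6% of all tested genes were. At an unadjusted p below 0.05, the counts of members were 0 by edgeR, 0 by DESeq2 and 0 by limma-voom. In bulk tissue, fewer cells of a type and less RNA per cell cannot be told apart, and this holds for every value below.

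Among the proteases, *Tpsb2* was the one tested member without overlap between the WT groups, a property that 36.2% of all tested genes had. Its mean was 3.96 ± 0.776 CPM in WT PBS and 5.36 ± 0.532 CPM in WT LPS, or 0.43 higher on the log2 scale (95% interval -0.02 to 0.88, adjusted p = 0.154). *Cpa3* differed by 0.14 (interval -0.41 to 0.68), *Mcpt4* by -0.04 (-0.86 to 0.78) and *Cma1* by -0.32 (-0.73 to 0.09) on the log2 scale, with adjusted p-values of 0.714, 0.945 and 0.235. *Tpsab1* rested on 20 counts in WT PBS and 52 in WT LPS, a ratio of 1.99 with a counting interval from 1.17 to 3.52, and the fitted difference of 0.95 had an interval from -0.47 to 2.37. It was 0.40 without WT PBS replicate 3 and 1.65 without WT PBS replicate 4. *Hdc* had means of 51.1 ± 11 and 51.7 ± 3.79 CPM and a log2 fold change of 0.02 (interval -0.34 to 0.38, adjusted p = 0.948).

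*Fcer1a* had 3 counts in the WT PBS libraries together and 22 in WT LPS. The ratio of its levels was 5.62, with a counting interval from 1.69 to 29.3 that leaves out the spread between mice. In a fit with no filter on low counts its log2 fold change was 2.30 (95% interval 0.16 to 4.44, unadjusted p = 0.0183), and the adjusted p of 0.0811 was short of the threshold. *Ms4a2* had 11 and 14 counts, and a ratio of 0.975 (counting interval 0.411 to 2.37).

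In Adm+/- lungs, *Cpa3*, *Mcpt4* and *Cma1* had lower means after LPS without passing the threshold, and the tryptases stayed within the range of the PBS group. None of the 6 tested members was called, against 25.0% of all tested genes. At an unadjusted p below 0.05, edgeR and limma-voom each listed 1 member, *Cma1*, and DESeq2 listed 2, *Cpa3* and *Cma1*. *Cma1* was at 4.89 ± 0.822 CPM with PBS and 3.61 ± 0.0227 CPM with LPS, without overlap between groups, as for 53.7% of tested genes. Its log2 fold change was -0.44 (95% interval -0.85 to -0.03, unadjusted p = 0.0367, adjusted p = 0.0947 by edgeR). *Cpa3* went from 4.84 ± 1.38 to 3.37 ± 0.449 CPM (log2 fold change -0.53, interval -1.07 to 0.01, adjusted p = 0.129), and *Mcpt4* from 2.99 ± 1.59 to 2.23 ± 0.323 CPM (-0.44, interval -1.26 to 0.37, adjusted p = 0.397).

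Whether *Cpa3* and *Mcpt4* passed the threshold turned on 1 library. Without Adm+/- PBS replicate 6, the difference was -0.74 for *Cpa3* (adjusted p = 0.0384) and -0.82 for *Mcpt4* (adjusted p = 0.0386) on the log2 scale, so both passed the threshold, and *Cma1* missed it at -0.58 (adjusted p = 0.0524). The fit without replicate 6 called 3110 of 16112 genes in all. Without replicate 6 and WT PBS replicate 5, the libraries of lowest protein-coding share, 3 of 7 tested members passed, with log2 fold changes of -0.74 for *Cpa3* (adjusted p = 0.00938), -0.81 for *Mcpt4* (adjusted p = 0.0139) and -0.57 for *Cma1* (adjusted p = 0.032). In that fit 3921 of 16100 genes were called in all. Leaving out any other single library gave no call among the members, and *Mcpt4* then ranged up to -0.18 (without Adm+/- PBS replicate 7).

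**Figure D2:**
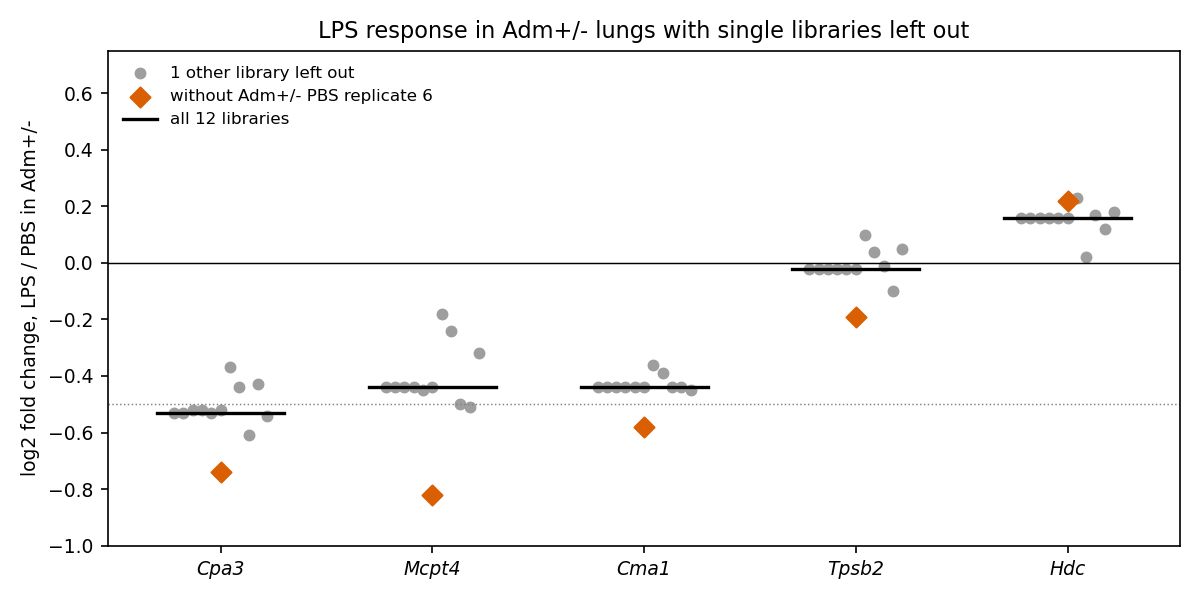
Log2 fold change of LPS against PBS in Adm+/- lungs for 5 members, from the fit to all 12 libraries (black line) and with 1 library left out at a time (grey points, and an orange diamond for Adm+/- PBS replicate 6); the dotted line marks -0.5. Without replicate 6 the values of *Cpa3*, *Mcpt4* and *Cma1* are -0.74, -0.82 and -0.58, the lowest of each set.

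*Tpsb2* had a log2 fold change of -0.02 after LPS in Adm+/- lungs (interval -0.47 to 0.43) and *Tpsab1* of 0.30 (-1.15 to 1.74). *Hdc* was at 64.6 ± 11.4 CPM with PBS and 72.0 ± 3.42 CPM with LPS, a log2 fold change of 0.16 (interval -0.20 to 0.51, adjusted p = 0.501). *Fcer1a* had 3 counts with PBS and 10 with LPS, a ratio of 3.13 whose counting interval of 0.805 to 17.7 includes 1, and the fit with no filter gave 1.53 on the log2 scale (-0.75 to 3.81). *Ms4a2* had 28 and 30 counts, a ratio of 1 (counting interval 0.58 to 1.74).

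Summed over the 5 protease genes, the levels were 16.4, 18.0 and 14.4 CPM in WT PBS, 18.2, 14.8 and 18.4 CPM in WT LPS, 11.3, 19.9 and 19.2 CPM in Adm+/- PBS and 13.8, 13.5 and 12.7 CPM in Adm+/- LPS. Adm+/- LPS lungs were below all WT lungs and below replicates 7 and 8 of Adm+/- PBS, and above replicate 6.

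Between genotypes with PBS, no member passed the threshold. None of the 6 tested members was called, nor was any of the 15885 genes (0%), with 344 genes at an unadjusted p below 0.05 by edgeR, 399 by DESeq2 and 234 by limma-voom and 0 members among them in each. The groups overlapped in every tested member, while 4.99% of all tested genes had no overlap. *Cpa3* was higher in Adm+/- by a log2 fold change of 0.42 (interval -0.13 to 0.96) and *Hdc* by 0.34 (-0.02 to 0.70). *Mcpt4* stood at 0.15 (-0.67 to 0.97), *Cma1* at -0.19 (-0.60 to 0.22), *Tpsb2* at -0.08 (-0.53 to 0.38) and *Tpsab1* at 0.00 (-1.54 to 1.54), with adjusted p-values from 0.999 to 1. *Ms4a2* had 28 counts in Adm+/- PBS against 11 in WT PBS, a ratio of 2.16 (counting interval 1.04 to 4.80), of which 17 came from replicate 7. *Fcer1a* was at 3 counts in each group, a ratio of 0.848 with a wide counting interval (0.114 to 6.33).

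Between genotypes with LPS, *Hdc* was higher and *Tpsb2*, *Cma1* and *Tpsab1* were lower in every Adm+/- lung than in any WT lung, and none of these passed the adjusted threshold. The WT LPS lungs also held high levels of skeletal muscle markers, and replicates 9 and 11 of squamous epithelium markers, as described below. The part of these tissues in this comparison was not tested. Called members numbered 0 of 6, against 2.05% of all tested genes, and 4 of 6 had no overlap between groups, against 24.6% of all tested genes. Of these 4, *Hdc* was higher, as were 12.2% of all tested genes, and 3 were lower, as were 12.4%. At an unadjusted p below 0.05, edgeR, DESeq2 and limma-voom each listed 2 members, *Hdc* and *Tpsb2*. *Hdc* had a log2 fold change of 0.48 (95% interval 0.12 to 0.84, unadjusted p = 0.0133, adjusted p = 0.18), or 1.39-fold, with means of 51.7 ± 3.79 and 72.0 ± 3.42 CPM. A fit to these 6 libraries alone gave an adjusted p of 0.0383 with the fold change still short of 0.5. *Tpsb2* had a log2 fold change of -0.53 (interval -0.97 to -0.08, unadjusted p = 0.0248, adjusted p = 0.245), from 5.36 ± 0.532 to 3.72 ± 0.402 CPM.

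For *Cma1* the log2 difference was -0.31 (interval -0.72 to 0.10), and the gap between the lowest WT LPS lung at 3.70 CPM and the highest Adm+/- LPS lung at 3.63 CPM was narrow. *Cpa3* stood at -0.25 (-0.79 to 0.29) and *Mcpt4* at -0.25 (-1.07 to 0.56), with overlapping groups. *Tpsab1* had 52 counts in WT and 32 in Adm+/-, a ratio of 0.638 (counting interval 0.398 to 1.01). *Fcer1a* had 22 and 10 counts, a ratio of 0.471 (0.199 to 1.04), and *Ms4a2* 14 and 30 counts, a ratio of 2.22 (1.14 to 4.54) with 17 counts from Adm+/- LPS replicate 2.

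**Figure D3:**
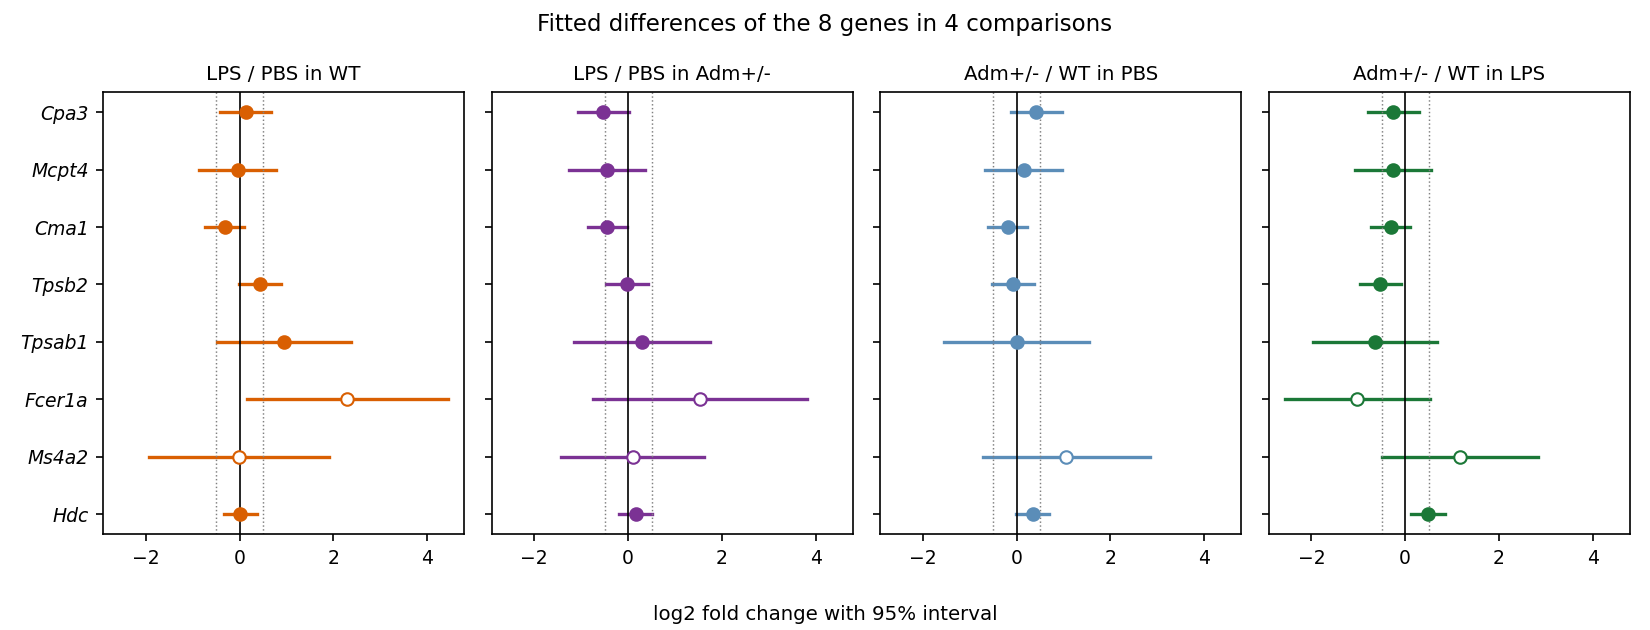
Fitted log2 fold change with its 95% interval for the 8 genes in 4 comparisons; filled points are genes in the filtered fit and open points the 2 genes fitted only without a filter, *Fcer1a* is not drawn where both groups had 3 counts, and dotted lines mark ±0.5. Intervals of *Hdc* and *Tpsb2* leave out 0 between genotypes with LPS, that of *Cma1* does so for LPS in Adm+/- lungs, and that of *Fcer1a*, at low counts, for LPS in WT lungs.

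The difference between the genotypes in the LPS response was tested as such, and no member was called, against 0.145% of all tested genes; at an unadjusted p below 0.05 the count was 0 by edgeR, DESeq2 and limma-voom alike. *Cpa3* had the smallest p, with a difference of -0.66 on the log2 scale (interval -1.43 to 0.10, adjusted p = 0.728), followed by *Tpsb2* with -0.45 (-1.09 to 0.19). *Mcpt4* stood at -0.40 (-1.56 to 0.76), *Cma1* at -0.12 (-0.70 to 0.45), *Tpsab1* at -0.65 (-2.67 to 1.38) and *Hdc* at 0.14 (-0.37 to 0.65). These intervals leave room for differences in response of up to 1.43 log2 units in *Cpa3*.

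*Hdc* and *Cpa3* are both expressed by mast cells, and the ratio of their counts within a library does not depend on the depth of sequencing. Because *Hdc* is also active in some other myeloid cells, the ratio is not a measure of mast cells alone. It was 10.5, 13.7 and 19.8 in WT PBS, 12.2, 14.5 and 12.2 in WT LPS, 21.8, 12.2 and 9.44 in Adm+/- PBS and 18.7, 26.3 and 20.1 in Adm+/- LPS. All 3 Adm+/- LPS lungs had a higher ratio than the 3 WT LPS lungs, and both PBS groups spread over a wide range. On the log2 scale the Adm+/- LPS mean was above the WT LPS mean by 0.73 (4.42 ± 0.26 against 3.68 ± 0.14, n = 3 each). An exact two-sided permutation test gave p = 0.1, the smallest that 3 against 3 lungs allow, and an adjusted p of 0.4 over the 4 comparisons of this ratio. LPS against PBS differed by -0.13 in WT and by 0.66 in Adm+/- lungs (exact permutation p of 0.8 and 0.3), and the genotypes with PBS differed by -0.05 (exact permutation p = 0.8).

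Within groups, *Cpa3*, *Mcpt4* and *Tpsb2* varied together more than most other pairs of members, but many genes outside the list were as close to *Cpa3*. After the group means were taken off, Pearson's r of the log2 CPM was 0.858 between *Cpa3* and *Mcpt4*, 0.726 between *Cpa3* and *Tpsb2* and 0.866 between *Mcpt4* and *Tpsb2*. *Cma1* gave 0.356 with *Cpa3*, 0.538 with *Mcpt4* and 0.352 with *Tpsb2*. *Tpsab1*, at its low counts, gave 0.788 with *Cma1*, 0.603 with *Mcpt4*, 0.464 with *Cpa3* and 0.259 with *Tpsb2*. *Hdc* gave values from -0.362 (with *Tpsb2*) to 0.121 (with *Tpsab1*). These are descriptions over 12 libraries that share a scaling, and the deviations include those of the 2 libraries of low protein-coding share. Ranked by r of the deviations with *Cpa3*, *Mcpt4* came at place 236 and *Tpsb2* at place 1970 of 15884 genes. Ranked by r of the levels, *Mcpt4* (r = 0.758) came at place 174 and *Tpsb2* at place 2567. The 5 genes of at least 1 CPM most like *Cpa3* were *Ccdc112* (0.924), *Vps41* (0.923), *Rbm45* (0.921), *Sfxn4* (0.915) and *Meis2* (0.887), and all 5 remained among the 100 most alike with any 1 library left out. Other members had r of 0.434 (*Tpsb2*), 0.323 (*Cma1*), 0.241 (*Tpsab1*) and -0.092 (*Hdc*).

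Genes that act with the members were drawn from lists, and their counts stand beside all tested genes, of which 10.5% were called higher and 7.09% lower after LPS in WT lungs, 12.8% and 12.2% in Adm+/- lungs, and 0.327% and 1.72% between genotypes with LPS. Of 19 other mast cell genes, 13 were tested, and 2 were higher after LPS in WT lungs and 5 were higher and 2 lower in Adm+/- lungs. The list's median log2 fold change was 0.31 in WT and 0.38 in Adm+/-, beside 0.01 and -0.01 over all tested genes. *Srgn*, the proteoglycan core that binds proteases in granules and is also abundant in neutrophils and macrophages, rose by a log2 fold change of 0.93 in WT (adjusted p = 0.00229) and 1.21 in Adm+/- (adjusted p = 0.000263). *Adora3*, an adenosine receptor, rose by 2.40 and 3.52 from group means below 1 CPM. *Gata2*, a transcription factor of mast cells and of endothelium, rose in Adm+/- lungs (0.89, adjusted p = 0.000553) and missed the fold threshold in WT (0.45). The difference between genotypes in the LPS response of *Gata2* was not called (0.44, adjusted p = 0.58 by edgeR). *Rab27b*, which moves secretory granules, fell in Adm+/- lungs (-1.02, adjusted p = 0.000246) and was the 1 gene of the list called between genotypes with LPS (-0.57, adjusted p = 0.0481 by edgeR), while limma-voom called 0 of 13. *Kit*, the receptor for stem cell factor that mast cells need to survive, had group means from 223 to 296 CPM and passed in no comparison, and *Cd63*, a granule membrane protein, did not pass either (0.04 and 0.38). *Kit* and *Cd63* are also expressed outside mast cells in lung.

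Of 8 basophil genes 7 were tested, and none was called in any of the 5 contrasts by edgeR, DESeq2 or limma-voom, nor was any at an unadjusted p below 0.05 (0 in each). After LPS in Adm+/- lungs their median log2 fold change was -0.17. *Prss34*, a basophil tryptase, differed by -0.46 in WT and 0.23 in Adm+/- lungs (adjusted p-values 0.577 and 0.777), *Il3ra*, a chain of the interleukin-3 receptor, by -0.08 and 0.01, and *Cebpa*, a myeloid transcription factor that lung epithelium also expresses, by -0.45 and -0.52.

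Most genes downstream of the IgE receptor were higher after LPS. Its alpha and beta chains, *Fcer1a* and *Ms4a2*, entered only the fit without a filter, as given above. All 16 listed signalling genes were tested, and 10 were higher and 1 lower after LPS in WT lungs, and 11 higher and 1 lower in Adm+/- lungs, with median log2 fold changes of 0.81 and 0.71. *Fcer1g*, the shared gamma chain that also serves Fc receptors of macrophages and neutrophils, went from 8.28 ± 2.26 to 38.4 ± 9.39 CPM in WT (log2 fold change 2.20, adjusted p = 0.000442) and from 8.50 ± 2.45 to 36.8 ± 6.80 CPM in Adm+/- lungs (2.11, adjusted p = 0.000231). The adaptor *Lcp2* rose by 2.1 and 2.24, the exchange factor *Vav1* by 1.87 and 1.96, and the kinases *Syk* by 1.14 and 1.46 and *Lyn* by 0.71 and 0.68. *Plcg1*, a phospholipase, did not pass (-0.27 and -0.25). These signalling genes are used by many leukocytes.

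Of 8 genes of histamine transport, breakdown and reception, 5 were tested, and 2 were higher after LPS in each genotype. *Hrh2*, a histamine receptor, rose by a log2 fold change of 2.31 in WT (adjusted p = 0.0114) and 2.77 in Adm+/- lungs (adjusted p = 0.00293), to 4.67 ± 1.33 and 4.84 ± 0.498 CPM. *Aoc1*, the diamine oxidase that degrades histamine, rose by 1.20 (adjusted p = 0.0403) and 2.17 (adjusted p = 0.00149), to 1.40 ± 0.239 and 1.79 ± 0.408 CPM. *Slc18a2*, which loads histamine into granules, differed by 0.63 and 0.57 (adjusted p-values 0.0952 and 0.104), *Hnmt*, which methylates histamine, by 0.22 and 0.04, and the transporter *Slc22a3* by -0.24 and -0.52. The receptor and the degrading enzyme passed the test in both genotypes and *Hdc* passed in neither, and the differences between these genes were not tested.

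Of 11 genes of leukotriene and prostaglandin D2 synthesis and reception, 10 were tested, with 4 higher after LPS in WT lungs and 5 higher and 1 lower in Adm+/- lungs. *Alox5ap*, which presents arachidonic acid to 5-lipoxygenase, rose by 2.40 and 2.11, and *Alox5*, the lipoxygenase itself, by 1.11 and 0.85. *Ptgs1* and *Ptgs2*, the cyclooxygenases, rose in Adm+/- lungs by 0.64 (adjusted p = 0.00151) and 1.67 (adjusted p = 0.00394) and did not pass in WT (0.21 and 0.38). The difference between genotypes in the LPS response was called for neither (0.42 and 1.29, adjusted p-values 0.501 and 0.508 by edgeR). *Lta4h*, which makes leukotriene B4, missed the threshold in both (0.00 and -0.40).

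Of 14 growth and survival factors and their receptors, 12 were tested, and 3 were higher after LPS in WT and 5 in Adm+/- lungs. *Il33*, an alarmin that activates mast cells, went from 27.8 ± 14 to 60.1 ± 17.3 CPM in WT (1.11, adjusted p = 0.043) and from 27.8 ± 5.84 to 150 ± 27.2 CPM in Adm+/- lungs (2.43, adjusted p = 0.000564). *Il1rl1*, its receptor, rose in Adm+/- lungs (0.75, adjusted p = 0.0454) and did not pass in WT (0.63). The difference between genotypes in the LPS response was called for neither *Il33* (1.32, adjusted p = 0.503 by edgeR) nor *Il1rl1* (0.12, adjusted p = 0.996). *Csf2rb* and *Csf2rb2*, shared chains of cytokine receptors, rose by 1.75 and 2.14 in WT and by 2.53 and 2.76 in Adm+/- lungs. *Kitl*, the ligand of Kit, differed by 0.25 and 0.33, and *Crlf2*, the receptor of thymic stromal lymphopoietin, by -0.44 and 0.26, and neither passed.

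Markers of other cells moved with the groups, several far more than the members did. The 12 neutrophil genes, among them *S100a8*, *S100a9* and *Lcn2*, summed to 72.0 to 235 CPM in WT PBS and 64.4 to 83.8 CPM in Adm+/- PBS, and to 2070 to 3840 and 2830 to 3160 CPM after LPS, with 10 and 11 of 11 tested genes higher. Monocyte and macrophage genes were higher after LPS in 7 and 6 of 8, NK cell genes in 2 and 3 of 5, and eosinophil genes in 1 of 4 in each genotype (*Ear6*), while 2 of 7 dendritic cell genes, *Mgl2* and *Itgae*, were lower in each.

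Markers of skeletal muscle set all WT LPS lungs apart, and markers of squamous epithelium set replicates 9 and 11 apart but not replicate 10. Skeletal muscle genes summed to 1640, 1800 and 732 CPM in WT LPS replicates 9, 10 and 11 and to 9.94 to 36.3 CPM in the other 9 libraries, and 8 of 9 tested were higher after LPS in WT lungs. Squamous epithelium genes, such as *Krt13* and *Krt4*, summed to 3250, 31.6 and 1690 CPM in the same lungs and to 3.74 to 45.7 CPM elsewhere, and 7 of 7 tested were higher by edgeR and DESeq2 and 0 of 7 by limma-voom. Between genotypes with LPS, 8 of 9 muscle genes and 5 of 7 squamous genes were lower in Adm+/- lungs by edgeR, and limma-voom called 8 and 0. *Tpsb2* was at 5.67 and 5.66 CPM in replicates 9 and 11, the lungs with the high squamous sums, and at 4.74 CPM in replicate 10. *Cpa3*, *Mcpt4*, *Cma1* and *Tpsab1* were also lowest in replicate 10 among the WT LPS lungs, while *Hdc* was lowest in replicate 11. In replicates 9, 10 and 11 the sum of the 5 proteases was 18.2, 14.8 and 18.4 CPM. The part of these tissues in the members' levels was not tested. After LPS, edgeR called 0 of 6 tested cartilage genes, with 0 at an unadjusted p below 0.05 and 0 called by DESeq2 or limma-voom, and 0 of 8 lung identity genes, with 1 at an unadjusted p below 0.05 in WT and 3 in Adm+/- lungs and 1 called by DESeq2 in Adm+/- lungs. In Adm+/- lungs edgeR called 1 fat gene, *Fabp4*, and 1 mesothelium gene, *Msln*, higher after LPS, and DESeq2 called 2 mesothelium genes. In WT lungs DESeq2 called 1 fat gene and edgeR and limma-voom none.

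**Figure D4:**
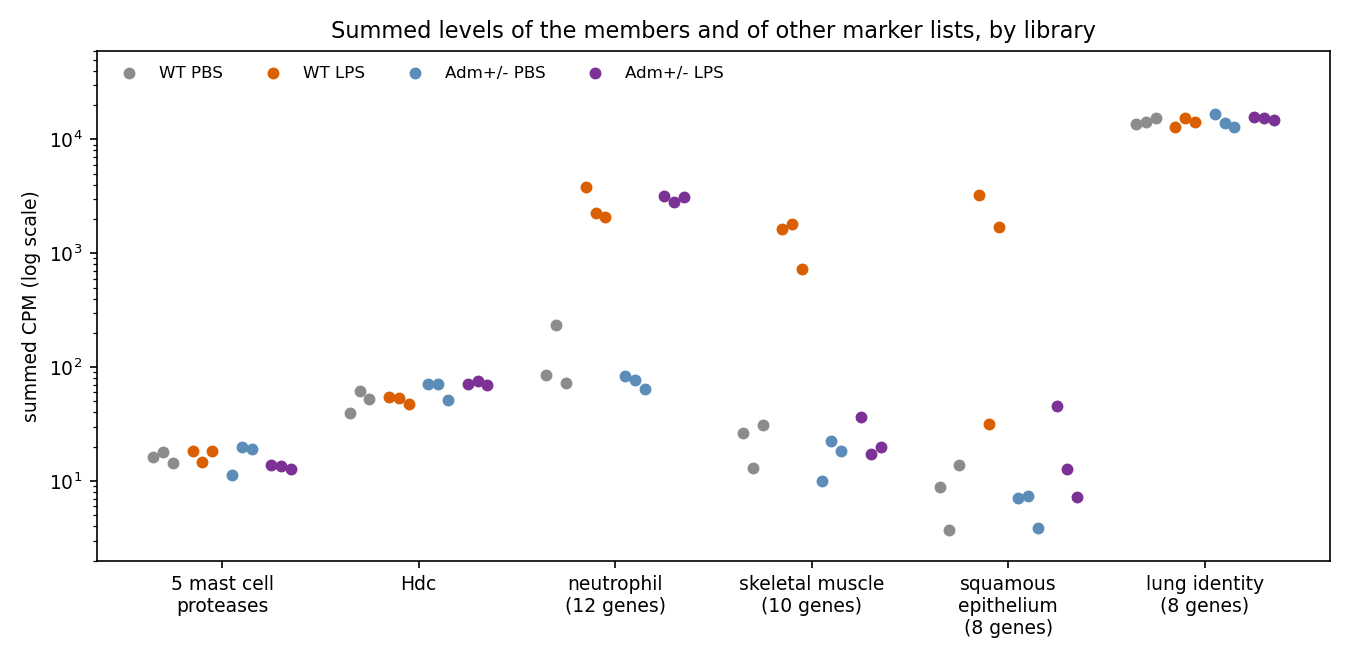
Summed level (CPM, log scale) of the 5 protease genes, of *Hdc* and of 4 marker lists in each of the 12 lungs; points are single lungs coloured by group. The protease sum stays between 11.3 and 19.9 CPM while the neutrophil sum goes from 64.4 to 3840 CPM, and the skeletal muscle sum is 732 to 1800 CPM in the WT LPS lungs and at most 36.3 CPM in the other 9.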

How the data were processed

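Whole-lung RNA of 12 mice was sequenced after depletion of ribosomal RNA with a directional kit. Per the labels, the authors trimmed reads with Trim Galore, aligned them to mm10 with HISAT2 and counted reads per gene using featureCounts. The authors deposited a table of whole-number counts without normalization, and every column was used. The strand option and the Gencode release are not given in the sources used here. Reads carry no molecular identifiers, so counting intervals cover counting error only.

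Of 21950 protein-coding genes, 15885 (72.4%) passed edgeR's filterByExpr, were scaled by TMM and entered the quasi-likelihood F-test of edgeR (edgeR 4.0.16, limma 3.58.1, DESeq2 1.42.0, R 4.3.3) in 1 fit with a coefficient per group and 8 residual degrees of freedom, over 5 contrasts. A gene was called at a Benjamini-Hochberg adjusted p below 0.05 over all tested genes and an absolute log2 fold change above 0.5. *Fcer1a* and *Ms4a2* did not pass the filter, and their fitted values come from a fit without it. Intervals are 95%, and fold changes of the fit are in log2 units. Ratios of low counts carry exact intervals. Log2 CPM used a prior count of 2, and the count ratio 0.5. The count table has no gene lengths, so levels per kb use the union of exons in Gencode M21, in which 52403 of 52550 genes (99.7%) were found. Each library is 1 mouse. Counts of the 12 within-group pairs of libraries differed beyond sampling noise. The fit was tested on simulated data.

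Members and gene lists were chosen with earlier results of these data known. Named genes are the 8 members, the 3 most abundant genes per kb and up to 4 called genes of a list where it is described, and the 5 genes of at least 1 CPM most like *Cpa3*. Genes of the neutrophil, monocyte, NK cell, eosinophil, dendritic cell, muscle, squamous, cartilage, fat, mesothelium and lung identity lists are given as counts with examples. Alternatives covered other scalings, tools, filters and sets of libraries. Promoters came from RefSeq tables, and protein sequences were not used here.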

Additional observations from a re-analysis of the deposited data

How the results depend on the processing

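The tools, RLE, upper-quartile and library-total scalings, and filters gave 0 called members in every contrast, and for LPS in Adm+/- lungs the count was 3 without the 2 libraries of lowest protein-coding share and 0 to 2 with 1 library left out. Of all tested genes, edgeR called 3968 for LPS in Adm+/- lungs, 3921 without the 2 libraries and 3033 to 4503 with 1 left out. Without those 2 libraries the log2 fold change turned to -0.04 for *Cpa3* after LPS in WT, -0.12 for *Tpsab1* and -0.28 for *Ms4a2* after LPS in Adm+/-, 0.02 for *Cma1* between genotypes with PBS and -0.12 for the *Ms4a2* difference in response. *Hdc* after LPS in WT turned to -0.02 with upper-quartile factors and -0.01 with all annotated genes. The causes were not tested. With 1 library left out, values on both sides of 0 were found after LPS in WT for *Cpa3* (-0.04 to 0.31), *Mcpt4* (-0.21 to 0.08), *Hdc* (-0.14 to 0.17) and *Ms4a2* (-0.44 to 1). They were found after LPS in Adm+/- for *Tpsb2* (-0.19 to 0.10), *Tpsab1* (-0.13 to 0.91) and *Ms4a2* (-0.28 to 0.54), between genotypes with PBS for *Mcpt4* (-0.12 to 0.51), *Tpsb2* (-0.21 to 0.08) and *Tpsab1* (-0.61 to 0.70), and in the difference for *Cma1* (-0.26 to 0.04), *Hdc* (-0.01 to 0.30) and *Ms4a2* (-0.91 to 0.55). *Tpsab1* moved by over 1.5 times with 1 library left out, from 0.40 to 1.65 after LPS in WT, from -0.79 to -0.37 between genotypes with LPS and from -1.35 to -0.04 in the difference. Other members also moved by over 1.5 times. Examples are *Mcpt4* (-0.37 to -0.10) and *Cma1* (-0.43 to -0.16) between genotypes with LPS, and *Cma1* (-0.48 to -0.20) after LPS in WT. Between genotypes with LPS the direction of each member was the same in every setting run. The log2 ratio of *Hdc* to *Cpa3*, for which leaving out libraries was chosen after the data were seen, ranged from -0.35 to 0.11 for LPS in WT and from -0.39 to 0.21 between genotypes with PBS. Genes of the other lists called between genotypes with LPS numbered 14, and 7 to 19 with 1 library left out, and those called for the difference numbered 5, and 1 to 7, while DESeq2 called 8 muscle genes and 1 squamous gene and limma-voom 0. Over all genes, 325 were called between genotypes with LPS by edgeR, 803 by DESeq2 and 548 without the 2 libraries, and 81 to 573 with 1 library left out. For the difference 23 were called by edgeR, 168 by DESeq2, 1 by limma-voom and 5 to 65 with 1 library left out. For LPS in WT, 2791 were called, 1152 in the fit to those 6 libraries and 1443 without WT LPS replicate 9. No paired analysis was run, because litters are not given in the sources used here and the replicate numbers only count through the libraries. *Fcer1a*, *Ms4a2* and *Tpsab1* are limited by depth, with at most 22 counts in a library.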
